A study of Mus musculus with 6 samples.

Results

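Deletion of Lsd1 in mouse oocytes was examined for the p53 family and 5 genes bound to it by function: Trp53, Trp63 and Trp73, their regulators Mdm2 and Mdm4, and the targets Cdkn1a, Ccng1 and Apaf1. These 8 genes were chosen by name, all were among the 23284 gene symbols of the files, and all passed the filter on low counts. The samples were fully grown oocytes at the germinal vesicle (GV) stage, held in meiotic prophase with an intact nucleus. They came from females 4 to 6 weeks old of Mixed C57BL/6-129 strain that had received 5 IU of gonadotrophin from pregnant mare's serum 48 hours before, a hormone that makes follicles grow. Both genotypes share this background and treatment, and each library pooled 100 oocytes. One group was labelled Lsd1 KO and the other Control, with 3 biological replicates each. The sources used here do not give how Lsd1 was deleted, which exons were removed, what alleles the Control females carried or how many animals gave each pool. Lsd1 (Kdm1a) is a histone lysine demethylase, and the comparison asks how gene expression in the oocyte differs when it is absent.

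p53, p63 and p73 are related transcription factors that bind the same kind of DNA element and can stop the cell cycle or start apoptosis after DNA damage. In the ovary p63, in its full-length form, is known as the factor that removes oocytes with broken DNA, most of all in small follicles. Mdm2 is a ubiquitin ligase that marks p53 for degradation, is itself a p53 target and works with its relative Mdm4, which masks the activation domain of p53. Cdkn1a encodes the CDK inhibitor p21, Ccng1 encodes cyclin G1, which brings a phosphatase to Mdm2, and Apaf1 forms the apoptosome that activates caspase-9. LSD1 is known to remove methyl groups from p53 itself as well as from histones. Counts of reads per gene report neither protein levels, nor p53 activity, nor which promoter of Trp63 or Trp73 was used.

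p53 binds 2 neighbouring copies of a 10-base consensus element, each with a core of the form CNNG in which both N are A or T. Pairs of this element with at most 13 bases between the copies and at most 2 mismatches outside the cores were searched in the mm9 genome, on both strands, within 3000 bases of each annotated start of a coding transcript. Cdkn1a and Ccng1 held a pair with at most 1 mismatch, and their sequences are shown for that reason. The choice used the match alone and not the test between genotypes. Letters are 5′ to 3′ on the strand of the gene, with 15 flanking bases at each end, and capitals mark the CNNG cores.
Cdkn1a, chr17:29227836-29227907, plus strand, upstream of the gene: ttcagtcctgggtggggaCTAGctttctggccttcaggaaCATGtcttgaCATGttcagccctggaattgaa
Ccng1, chr11:40568423-40568472, minus strand, intron: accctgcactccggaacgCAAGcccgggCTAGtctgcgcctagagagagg
The Cdkn1a stretch holds 3 copies, which form 2 overlapping pairs: one with 0 mismatches and 12 bases between the copies, and one with 1 mismatch and 0 bases between them. These copies end 32 bases before the most upstream coding start and 2825 bases before the next one. In Ccng1 the pair has 1 mismatch and 0 bases between the copies, and begins 356 bases after the start. Around the most upstream start of 12200 genes tested, 1.91% held a pair with 0 mismatches. A pair with at most 1 was held by 12.6% and one with at most 2 by 46.3%. In the same window, 1 of the 8 members held a pair with 0 mismatches, 2 with at most 1 and 4 with at most 2. Mdm4, Trp63 and Trp73 held pairs with 2 mismatches, that of Trp73 outside the window of its most upstream start. No pair by this rule lay in the windows of Trp53, Mdm2 or Apaf1. A match describes letters only, and binding was not measured.

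Total counts were 10735422 to 13035045 per library, and 15762 to 16815 genes had a count. Kdm1a checked the labels, with 31 to 47 counts per Lsd1 KO library against 492 to 962 per Control library. All 18 oocyte markers were detected, with summed levels of 40127 to 44665 CPM in Lsd1 KO against 29681 to 35116 CPM in Control. Most of that difference was Gdf9, an oocyte growth factor, at 15558 ± 1264 against 6057 ± 830 CPM. The test called 2 of the 18 markers higher and 1 lower, leaving 15 uncalled, and their median log2 fold change was -0.18. Control replicate 3 stood apart on the second principal component (15.2% of the variance) and Lsd1 KO replicate 2 on the third (14.8%). The test covered 12935 genes and called 2750 (21.3%), 1421 of them higher with Lsd1 deleted and 1329 lower. Levels below are CPM, counts scaled to the library size after TMM, with mean ± SD over 3 libraries per genotype. Log2 fold changes ± SE set Lsd1 KO over Control, and adjusted p-values come from edgeR's quasi-likelihood test adjusted by Benjamini-Hochberg across every gene tested, called at a threshold of 0.05. In pooled oocytes, fewer cells with a transcript and less transcript per cell cannot be told apart.

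Of the 8 genes, 2 were higher (Ccng1 and Cdkn1a), 1 was lower (Trp73) and 5 did not pass, beside a called share of 21.3% among all genes. Ccng1 and Cdkn1a were higher by 2.67-fold and 3.24-fold, and Trp73 was lower by 2.33-fold. Of those that did not pass, the target Apaf1 differed by 1.83-fold, and Trp53, Trp63, Mdm2 and Mdm4 by at most 1.30-fold. The median log2 fold change of the 8 genes was 0.38, beside -0.01 for all genes tested. Libraries of the 2 genotypes did not overlap for 4 of the 8 genes, 3 higher and 1 lower, as was also true of 38.7% of all genes tested (19.5% higher and 19.1% lower).

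**Figure D1:**
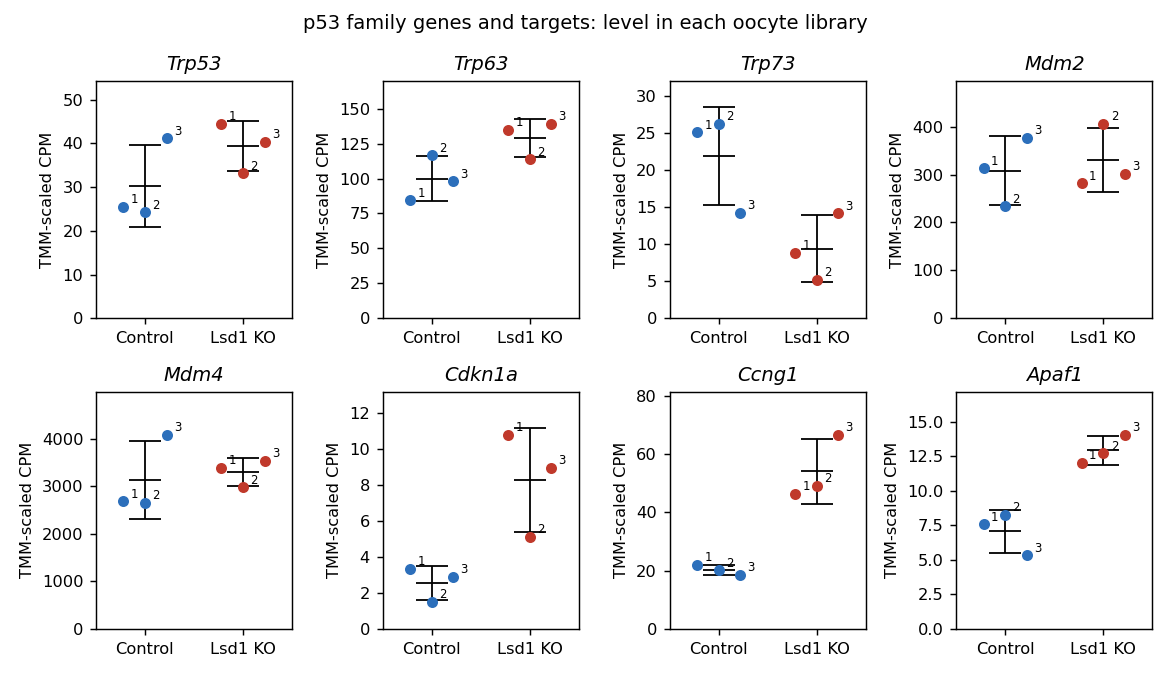
Level of each of the 8 genes in TMM-scaled CPM on linear axes that start at 0, with Control libraries in blue, Lsd1 KO libraries in red, the replicate number beside each point, and mean ± SD as bars. Ccng1, Cdkn1a and Apaf1 have all 3 Lsd1 KO libraries above all 3 Control libraries, while those of Trp53, Trp63, Mdm2 and Mdm4 overlap.

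Trp53 lies on mm9 chromosome 11 from 69393861 to 69405375. It was at 44.5, 33.2 and 40.4 CPM in Lsd1 KO replicates 1 to 3 and at 25.5, 24.3 and 41.2 CPM in Control replicates 1 to 3. Control replicate 3 was as high as the Lsd1 KO libraries and the other Control libraries lay below them. The difference was 0.38 ± 0.24 on the log2 scale and did not pass (edgeR adjusted p = 0.276). Without Control replicate 3 it was 0.65 and passed (adjusted p = 0.0482). A short processed pseudogene of Trp53 is annotated on another chromosome, and the sources used here do not say whether its reads were kept apart.

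Trp63, on chromosome 16 from 25683849 to 25892188, encodes the family member that guards the genome of the oocyte. Its levels were 135, 114 and 139 CPM in Lsd1 KO against 84.5, 117 and 98.2 CPM in Control. Lsd1 KO replicate 2 lay below Control replicate 2, so that the groups overlapped. The log2 fold change of 0.37 ± 0.18 did not pass (adjusted p = 0.164), nor did it under any of the 16 alternative settings (0.24 to 0.51). The 2 genes with the most similar pattern over the 6 libraries, measured as the root mean square difference of centred log2 CPM, were the tryptophanyl-tRNA synthetase Wars (0.0615) and the translation initiation factor Eif5 (0.0726).

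Trp73, on chromosome 4 from 153430358 to 153514317, encodes p73, which in the female germline is linked to the fidelity of the meiotic spindle. It was at 8.82, 5.23 and 14.2 CPM in Lsd1 KO and at 25.2, 26.3 and 14.3 CPM in Control. Lsd1 KO replicate 3 and Control replicate 3 were nearly equal, so that the groups were separated by a very small gap. The mean fell from 21.9 ± 6.64 to 9.41 ± 4.51 CPM, a log2 fold change of -1.22 ± 0.36 (adjusted p = 0.0306). This call was kept in 2 of 6 fits that left out 1 library: it was lost without either of Lsd1 KO replicates 1 and 2 (adjusted p = 0.0976 and 0.0716) or of Control replicates 1 and 2 (0.0954 and 0.106). It was also lost with the summed immune marker level as a covariate (-1.50, adjusted p = 0.0955). An annotated transcript on the opposite strand, Gm13116, shares 280 exon bases with Trp73, is no symbol of the files, and without strand its reads would count as Trp73. The nearest patterns were those of the cadherin Cdh8 and the calcium channel Cacna1e (root mean square difference 0.196 and 0.203), both at or below 2.41 CPM on average in each group.

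The regulators were the most abundant of the 8 genes and differed least between genotypes. Mdm2, on chromosome 10 from 117125944 to 117147814, was at 282, 406 and 301 CPM in Lsd1 KO and at 313, 234 and 377 CPM in Control. The highest library was Lsd1 KO replicate 2 and the lowest Control replicate 2, with the other 4 between them. The log2 fold change was 0.10 ± 0.21 (adjusted p = 0.782), and its sign turned without Lsd1 KO replicate 2 or Control replicate 2 (-0.10 and -0.05).

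Mdm4, on chromosome 1 from 134886422 to 134921943, was at 3384, 2974 and 3528 CPM in Lsd1 KO and at 2683, 2649 and 4087 CPM in Control. Control replicate 3 was the highest library and the other Control libraries were the lowest. The log2 fold change was 0.07 ± 0.20 (adjusted p = 0.837), negative without Control replicate 1 or 2 and with the immune covariate. Mdm4 alone took 0.27% to 0.385% of all counts in a library, and a pseudogene of it is annotated on the X chromosome. Per kilobase of exon, the level of Mdm4 was 10.6 to 17.4 times that of Mdm2 within a library, with Lsd1 KO replicate 2 the lowest and Lsd1 KO replicate 1 the highest. The ratio depends on the length used. Control means were 894 for Mdm4 and 60.8 for Mdm2 per kilobase of exon, and 900 and 98.4 per kilobase of the longest transcript.

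Among the targets, Ccng1 on chromosome 11 (40562054 to 40568813) gave the smallest p of the 8 genes. It was at 46.4, 49.1 and 66.8 CPM in Lsd1 KO and at 22, 20.2 and 18.5 CPM in Control. Every Lsd1 KO library was more than 2 times as high as every Control library. The mean rose from 20.2 ± 1.75 to 54.1 ± 11.1 CPM, a log2 fold change of 1.42 ± 0.21 (adjusted p = 8.06e-04). It passed under all 16 alternative settings, including each of the 6 fits that left out 1 library (1.27 to 1.54). The nearest patterns were those of the melanoma antigen family gene Maged1 and the membrane-bound ubiquitin ligase March8 (0.106 and 0.108).

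Cdkn1a, on chromosome 17 from 29227924 to 29237667, had low counts, with 135, 57 and 100 in Lsd1 KO against 36, 20 and 32 in Control. These gave 10.8, 5.14 and 8.98 CPM in Lsd1 KO against 3.33, 1.51 and 2.89 CPM in Control. Lsd1 KO replicate 2 was the lowest of its group and still above every Control library. The log2 fold change was 1.70 ± 0.43 (adjusted p = 0.0152). The call was kept in 4 of 6 fits that left out 1 library and lost without Lsd1 KO replicate 1 (adjusted p = 0.0746) or Control replicate 2 (0.0558). Its nearest patterns were those of the basement membrane collagen Col4a5 and the transporter Slc5a4b (0.157 and 0.196). Both were also low, at 3.23 against 0.972 CPM and at 7.44 against 1.94 CPM in Lsd1 KO against Control.

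Apaf1, on chromosome 10 from 90452056 to 90545515, was at 12, 12.7 and 14.1 CPM in Lsd1 KO and at 7.58, 8.29 and 5.33 CPM in Control. The groups did not overlap, yet the log2 fold change of 0.87 ± 0.29 lay just past the threshold and did not pass (adjusted p = 0.0504). It passed under 6 of 16 alternatives, DESeq2 and limma-voom among them (adjusted p = 0.0311 and 0.0443), and in none of the 6 fits that left out 1 library (0.0695 to 0.128).

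**Figure D2:**
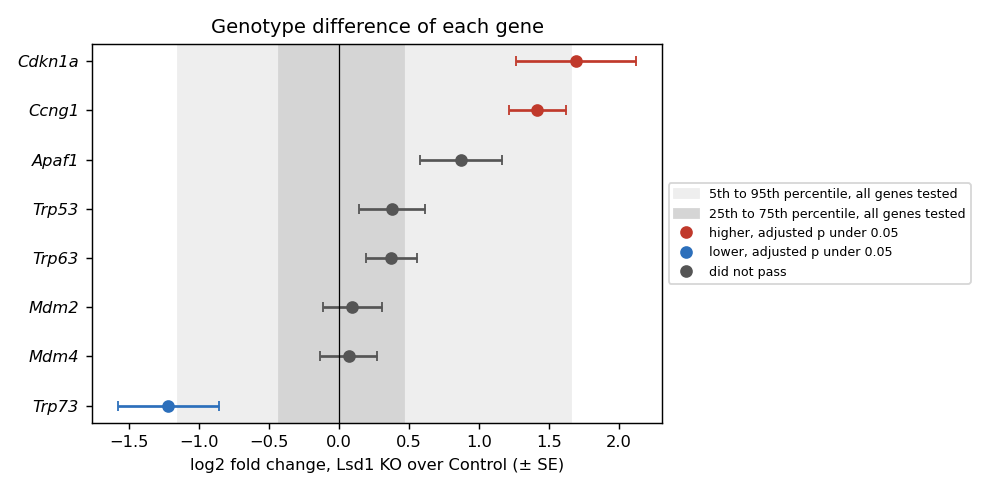
Log2 fold change of each gene, Lsd1 KO over Control, with SE bars from the edgeR fit, and grey bands for the 25th to 75th and the 5th to 95th percentile of all genes tested. Cdkn1a (1.70) lies just outside the wider band on the high side and Trp73 (-1.22) just outside it on the low side, while Trp53, Trp63, Mdm2 and Mdm4 lie within the narrower band.

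Markers of other cells are given beside the calls for Cdkn1a, Ccng1 and Trp73, and their counts stand beside 21.3% called among all genes tested. Summed granulosa, stroma and endothelial markers were higher in every Lsd1 KO library than in any Control library, while the immune sums overlapped. The 14 immune markers summed to 48.7 to 247 CPM in Lsd1 KO against 28.7 to 90.5 CPM in Control. Of 12 tested, 2 were higher (16.7% called), Cd68 and H2-Aa, both with overlapping groups. Lsd1 KO replicate 2 had an immune sum of 48.7 CPM with Ptprc, Tyrobp and C1qc at 0, below the sums of Control replicates 1 and 3 (62.1 and 90.5 CPM). In that library Ccng1 (49.1 CPM), Cdkn1a (5.14 CPM) and Apaf1 (12.7 CPM) lay above every Control library. Its Cdkn1a was below the 10.8 and 8.98 CPM of Lsd1 KO replicates 1 and 3, whose immune sums were 247 and 206 CPM. Control replicate 2 was the lowest of its group in both the immune sum (28.7 CPM) and Cdkn1a (1.51 CPM). With the immune sum as a covariate, Ccng1 remained higher while the difference of Cdkn1a was 1.04 and did not pass (adjusted p = 0.161). Under that covariate 683 genes were higher and 520 lower among all genes, beside 1421 and 1329 without it. Whether immune RNA gave rise to any of these differences was not tested.

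The 20 granulosa and cumulus cell markers summed to 401 to 495 CPM in Lsd1 KO against 135 to 153 CPM in Control. Of 15 tested, 3 were higher and 1 was lower (26.7% called, beside 21.3% of all genes tested). Most of the difference in the sums came from the aromatase gene Cyp19a1, at 324 ± 82.8 against 36.8 ± 11 CPM. The lower one was Nr5a2, at 28.7 ± 3.99 against 69.4 ± 3.10 CPM (adjusted p = 7.86e-04). The granulosa transcription factor Foxl2 was at 1.53 to 6.01 CPM in Lsd1 KO against 0.301 to 2.03 CPM in Control, but did not pass. The cumulus gene Tnfaip6 had no count in 5 of the 6 libraries. Theca and stroma markers summed to 258 to 295 CPM in Lsd1 KO against 201 to 219 CPM in Control, nearly all of it Myh11. Other members went either way. Col3a1 had no count in Control, while Nr2f2 (1.20 against 2.71 CPM) and Pdgfra (0.430 against 1.01 CPM) had lower means in Lsd1 KO, neither of them called. Of 3 tested theca and stroma markers 1 was higher, the matrix proteoglycan gene Dcn, at 7.57 ± 0.386 against 0.414 ± 0.169 CPM (4.14 ± 0.48, adjusted p = 1.92e-04). Of 12 red cell and endothelial markers 6 had no count in any library, the globins among them, and the sums were 104 to 122 against 70.3 to 88.2 CPM. Of 3 tested, the angiopoietin receptor gene Tek was higher, at 47.5 ± 3.94 against 28.6 ± 7.34 CPM (0.73 ± 0.22, adjusted p = 0.0306). Nearly all of the sums came from Tek and Pecam1. Pecam1, at 60.0 ± 16.3 against 48.9 ± 6.06 CPM, overlapped between genotypes and was not called. Kdr, at most 4.13 CPM in any library, also overlapped and was not called. The other endothelial markers were nearly absent, with total counts of 0 for Cldn5, 1 for Cdh5 and 4 for Emcn. The part of granulosa, stroma and endothelial RNA in the differences of Ccng1, Cdkn1a and Trp73 was not tested.

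Levels were compared between genes per kilobase of exon. In Control the order from the highest was Mdm4 (894 ± 234 CPM per kilobase), Mdm2 (60.8 ± 14.2), Trp63 (11.9 ± 1.93), Trp53 (7.50 ± 2.33), Ccng1 (5.76 ± 0.498), Trp73 (3.96 ± 1.20), Cdkn1a (1.16 ± 0.428) and Apaf1 (0.783 ± 0.171). The ranges of Trp63 and Trp53, of Trp53 and Ccng1, and of Cdkn1a and Apaf1 overlapped over the 3 Control libraries, although both genes of a pair were read in the same libraries. Within each of the 6 libraries Trp63 exceeded Trp53, by 1.15 to 2.32 times. Trp53 exceeded Ccng1 by 1.01 to 1.93 times within the 3 Control libraries, and Cdkn1a was at 0.738 to 2.20 times Apaf1, below it in Control replicate 2. In Lsd1 KO, Ccng1 (15.4 ± 3.15) reached the level of Trp63 (15.4 ± 1.63), and Cdkn1a (3.74 ± 1.30) stood above Trp73 (1.70 ± 0.814), each pair with overlapping ranges. With the longest transcript as the length the Control order was the same, and in Lsd1 KO Apaf1 (1.97) and Trp73 (1.87) changed places. By that length Ccng1 (15.4) did not reach Trp63 (24.1) in Lsd1 KO, so their match depended on the length used.

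**Figure D3:**
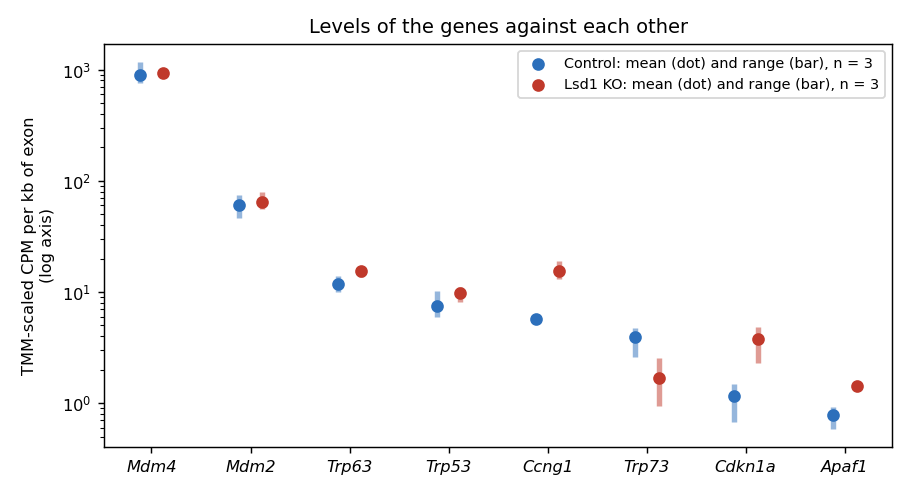
Level of each gene in CPM per kilobase of exon on a log axis, with the mean as a dot and the range over 3 libraries as a bar for Control (blue) and Lsd1 KO (red). Mdm4 stands highest at 894 in Control, and the bars of the 2 genotypes do not overlap for Ccng1, Trp73, Cdkn1a and Apaf1.

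The genes that surround the p53 family were taken from 7 lists by role and are described by counts and medians. Of 28 upstream kinases and damage sensors tested, 1 was higher, 1 was lower and 26 did not pass. This was 7.14% called beside 21.3% of all genes, with a median log2 fold change of -0.14. Libraries of the 2 genotypes did not overlap for 2 of the 28 as higher and 10 as lower, beside 19.5% and 19.1% of all genes. DESeq2 called 1 higher and 3 lower. Atr, the kinase that responds to stalled replication forks, rose from 118 ± 18.2 to 191 ± 21.7 CPM (0.70 ± 0.18, adjusted p = 0.0169). Hipk2, a kinase that phosphorylates p53, fell from 206 ± 48.9 to 120 ± 12.2 CPM (-0.79 ± 0.20, adjusted p = 0.0162). Chek2, the kinase that primes p63 in damaged oocytes, was named after its values were seen, and stood at 8.81 ± 0.983 CPM in Lsd1 KO against 6.89 ± 2.22 CPM in Control (adjusted p = 0.474). Leaving out 1 library ended the call of Atr in 3 of 6 fits and that of Hipk2 in 2 of 6 (adjusted p up to 0.0752 and 0.0660).

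Of 33 p53 regulators tested, 1 was higher and 8 were lower, or 27.3% called, with a median of -0.25. Among all genes tested 21.3% were called, 11% higher and 10.3% lower. The fall with the smallest p was that of the acetyltransferase Ep300 (p300), which acetylates p53 and histones, from 295 ± 48.9 to 109 ± 2.42 CPM (-1.44 ± 0.18, adjusted p = 2.89e-04). The deacetylase Sirt1 fell from 149 ± 15.5 to 67.0 ± 14.7 CPM (-1.15 ± 0.20, adjusted p = 0.00222). Trim24, a ubiquitin ligase for p53, fell from 419 ± 50.03 to 207 ± 66.8 CPM (-1.02 ± 0.22, adjusted p = 0.00766). Ep300 and Sirt1 kept the call under all 16 alternatives and Trim24 under 14. The falls included an enzyme that adds acetyl groups to p53 and one that removes them. Only 2 regulators were lower without Lsd1 KO replicate 1, 5 without Lsd1 KO replicate 3, and 4 without Lsd1 KO replicate 2 or with the immune covariate.

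Most of the other p53 targets tested did not pass, and the share called in each list stands beside 21.3% of all genes. The test reached 21 of 26 listed growth arrest targets, 15 of 24 apoptosis targets and 18 of 24 targets in repair and metabolism. The others were too low in counts or had no symbol here, and were not tested. Of 21 tested growth arrest targets, 1 was higher and 1 lower (9.52% called, median 0.18). Pml, which organises nuclear bodies, rose from 8.57 ± 3.23 to 20.2 ± 3.65 CPM (1.23 ± 0.30, adjusted p = 0.0134), and the transcription factor Klf4 fell from 8.12 ± 2.73 to 2.64 ± 1.39 CPM (-1.62 ± 0.45, adjusted p = 0.0242). Each lost the call in 3 of the 6 fits that left out 1 library. Of 15 tested apoptosis targets, 1 was higher and 2 were lower (20% called, median 0.12). The falls were those of Bnip3l, a mitophagy receptor (-0.92 ± 0.17, adjusted p = 0.00312), and of Bcl2l11, which encodes the BH3-only protein Bim (-1.16 ± 0.23, adjusted p = 0.00462). Siva1, a proapoptotic adaptor, rose by 0.75 ± 0.19 on the log2 scale (adjusted p = 0.0169). Named after their values were seen, Bax was at 3.27 ± 1.34 against 1.20 ± 0.269 CPM and Pmaip1 (Noxa) at 3.76 ± 3.57 against 1.61 ± 0.631 CPM, and neither passed (adjusted p = 0.0775 and 0.273).

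Of 18 tested targets in repair and metabolism, 2 were higher and 3 lower (27.8% called, median 0.11). Gpx1, a glutathione peroxidase, rose from 30.2 ± 10.3 to 115 ± 29.8 CPM (1.93 ± 0.28, adjusted p = 7.86e-04). The damage recognition gene Xpc fell from 40.2 ± 3.76 to 20.1 ± 2.18 CPM (-1.001 ± 0.19, adjusted p = 0.00410). Gpx1 and Xpc passed under all 16 alternatives.

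Of 20 apoptosome and caspase genes tested, 0 were higher, 3 were lower and 17 did not pass by edgeR (15% called, median -0.20). Among all genes tested 21.3% were called, 11% higher and 10.3% lower. From the same 6 libraries, none was higher at an unadjusted edgeR p under 0.05 (0 genes), nor with DESeq2 or limma-voom (0 and 0). The fall of Htra2, a mitochondrial protease that relieves caspase inhibition, was from 7.36 ± 0.989 to 1.85 ± 0.112 CPM (-1.99 ± 0.38, adjusted p = 0.00352). The chaperone Hspa8 (-0.71 ± 0.17, adjusted p = 0.0129) and the caspase inhibitor Birc6 (-0.65 ± 0.20, adjusted p = 0.0378) also fell. Birc6 kept the call in 2 of 6 fits that left out 1 library. Caspase-9 itself, named after its values were seen, was at 8.83 ± 1.23 CPM in Lsd1 KO against 8.62 ± 2.58 CPM in Control (Casp9, adjusted p = 0.955).

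Of 32 tested partners of p21 and cyclin G1, 3 were higher and 3 lower (18.8% called beside 21.3% of all genes, median -0.14). E2f1, a transcription factor of the G1 to S transition, rose from 68.4 ± 9.13 to 118 ± 11.9 CPM (0.79 ± 0.18, adjusted p = 0.00849). Its dimer partner Tfdp1 fell from 57.1 ± 9.34 to 26.5 ± 2.75 CPM (-1.10 ± 0.20, adjusted p = 0.00248). Lin54, the DNA-binding subunit of the complex that represses cell cycle genes with p130, fell by 0.77 ± 0.17 on the log2 scale (adjusted p = 0.00858). Cdk2, the main kinase held by p21, was named after its values were seen and stood at 14.5 ± 2.35 CPM in Lsd1 KO against 14.4 ± 1.02 CPM in Control (adjusted p = 0.979).

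**Figure D4:**
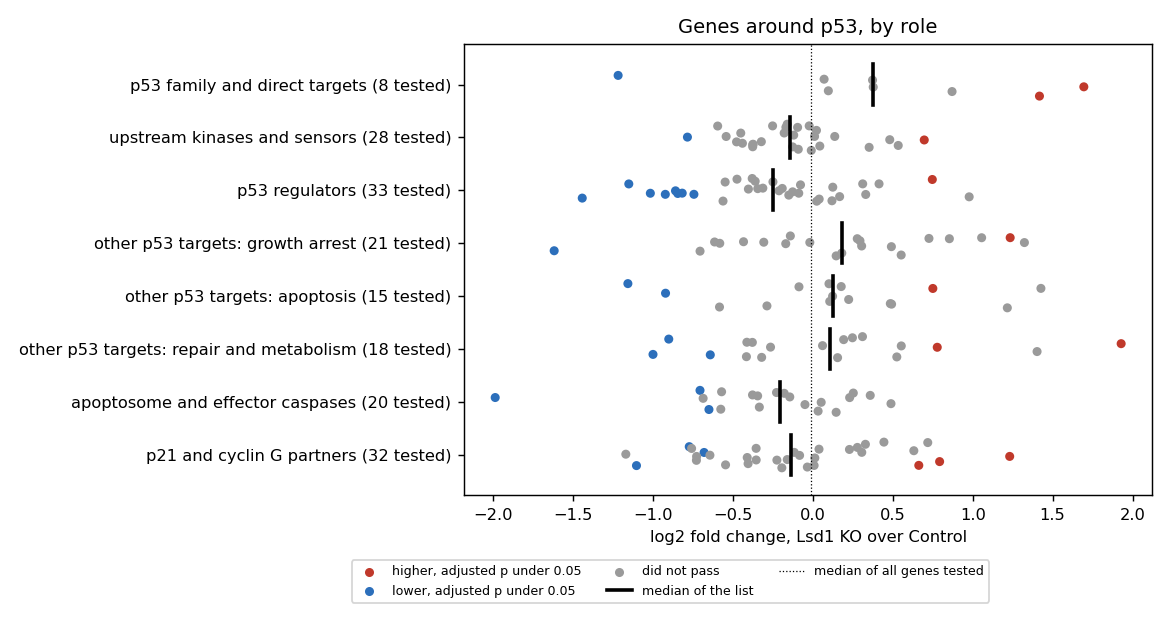
Log2 fold change of every tested gene of the 8 genes and of the 7 lists, with genes higher in red, lower in blue and not passing in grey, list medians as thick bars and the median of all genes as a dotted line. The p53 regulators hold 8 called falls and 1 called rise among 33 tested (27.3%, beside 21.3% of all genes). The list medians lie between -0.25 and 0.38.

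**Figure D5:**
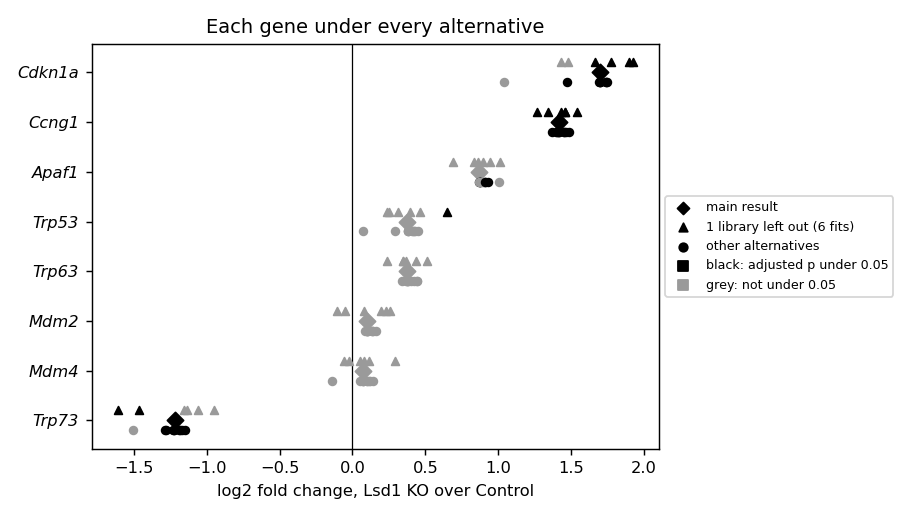
Log2 fold change of each of the 8 genes in the main result (diamond), with 1 library left out (triangles) and under the other alternatives (circles), black where the adjusted p was under 0.05. Ccng1 is black throughout, Trp63 is grey throughout, and Mdm2 and Mdm4 cross 0.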

How the data were processed

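The deposited files give raw read counts per gene symbol for 6 libraries, made by the authors. Per the submitters' processing notes, the genome was mm9 and the tools were HTSeq 0.5.3p9, TopHat2 2.0.7 and CASAVA 1.8.2. The sources used here give no options, annotation or strand setting. Groups follow the genotype labels. Genes were kept by filterByExpr (minimum count 10) and tested two-sided with edgeR 4.0.16 (TMM, quasi-likelihood) in R 4.3.3. SE is the log2 fold change divided by the square root of the test statistic. Positions and exon lengths came from GENCODE M1 for 21709 symbols, and sequences from NCBIM37, which is the mm9 assembly. Alternatives were 3 scalings, DESeq2 1.42.0, limma-voom (3.58.1), 2 filters, a replicate block, a loess correction (span 0.5) for length and GC, an immune marker covariate, and each library left out. The scripts were tested on simulated data. Members, lists and tests were chosen with earlier results of these data known. Named were the members, Kdm1a, up to 3 passing genes per list by adjusted p, and the 2 nearest patterns of passing members and Trp63. A single gene so named is not reported here. Replicate pairs differed by more than counting noise (chi-square per degree of freedom 21.2 to 47.1).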

Additional observations from a re-analysis of the deposited data

How the results depend on the processing

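With 3 libraries per genotype and low counts for Cdkn1a, Apaf1 and Trp73, single libraries decided several calls. Apaf1 passed with DESeq2 size factors (0.87, adjusted p = 0.0498), upper-quartile scaling (0.91, 0.0483), DESeq2 (0.87, 0.0311), limma-voom (0.88, 0.0443), at least 10 CPM in 3 libraries (0.93, 0.0308) and the length and GC correction (0.91, 0.0466). Under the filter of 10 CPM Cdkn1a was not tested. With the immune covariate the members gave 1 higher and 0 lower: Cdkn1a was 1.04, Trp73 -1.50 and Mdm4 reversed to -0.14. Under it 683 genes were higher and 520 lower. The lists then gave, as higher and lower, 0 and 4 regulators, 0 growth arrest falls, 0 and 1 apoptosis targets, 1 and 1 repair targets, and 0 partners of p21 higher. Upstream kinases lower were 3 with DESeq2 and 2 after the length and GC correction. Apoptosis targets higher were 2 with no filter, and growth arrest targets were 2 higher and 0 lower at 10 CPM. The cause was not tested.

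With 1 library left out, genes higher ran from 932 to 1466 and lower from 638 to 1346, and members from 1 to 3 higher and 0 to 1 lower. Log2 fold changes ran from 0.24 to 0.65 for Trp53, 0.24 to 0.51 for Trp63, -1.61 to -0.95 for Trp73, -0.10 to 0.26 for Mdm2 and -0.06 to 0.29 for Mdm4. Mdm2 was -0.10 and -0.05 without Lsd1 KO replicate 2 and Control replicate 2, and Mdm4 -0.059 and -0.025 without Control replicates 1 and 2. They ran from 1.43 to 1.92 for Cdkn1a, 1.27 to 1.54 for Ccng1 and 0.69 to 1.01 for Apaf1. Lists ran from 0 to 1 higher and 0 to 2 lower (upstream kinases), 0 to 1 and 2 to 7 (regulators), 0 to 2 and 0 to 1 (growth arrest), 0 to 1 and 2 to 2 (apoptosis), 1 to 3 and 2 to 3 (repair), 0 to 0 and 1 to 3 (apoptosome), and 1 to 2 and 1 to 3 (p21 partners).

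Correlations of same-numbered deviations were -0.03, 0.11 and -0.02. Those of Lsd1 KO replicate 3 with Control replicates 1 and 2 were 0.13 and -0.10. With 3 libraries per genotype these values cannot settle whether replicate numbers pair the samples. With a replicate block 1270 genes were higher and 1098 lower, the members again gave 2 higher and 1 lower, and Ccng1 was 1.40, Cdkn1a 1.70 and Trp73 -1.28. Only Birc6 of the named genes lost its call under the block (-0.62, adjusted p = 0.0644).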
